A study of Mus musculus with 912 samples.

Results

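Pyramidal neurons of CA3 receive the mossy fiber output of the dentate gyrus (DG) and project to CA1. This report follows 23 single nuclei carrying the CA3 cell type label, sorted 1 h after mice returned from an unfamiliar environment: 13 nuclei stained positive for FOS protein (FOS+) and 10 stained negative (FOS−). They were chosen by exposure, predicted cell type and FOS gate from the 912 nuclei of the series, of which 360 carried a cell type label and 27 were labelled CA3. The remaining 4 CA3 nuclei came from mice that stayed in the home cage (HC) and serve as a second reference. All 27 had more than 4000 genes above a log2(TPM+1) of 1, where TPM is a length- and depth-scaled transcript level, and all were kept.

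The animals were wild-type C57BL6 females with no transgene. Mice with CA3 nuclei were 8.85 or 9 weeks old. Of the other mice with at least 2 nuclei of a cell type, those with CA1, subiculum or 1 h DG nuclei were 8.7 weeks old. HC mice with at least 2 DG nuclei were 7.75 and 8.57 weeks old. Further mice gave 1 nucleus of a cell type, and these mice were 8.7 to 9 weeks old. Mice of the 1 h group explored an unfamiliar cage with huts and tunnels, and HC mice did not. CA3 nuclei were sorted from dissociated hippocampus as NEUN+, PROX1− and CTIP2−, a gate that also holds CA2 cells and interneurons. Each nucleus became 1 Smart-seq2 library. By their labels, 1 h DG nuclei were sorted as PROX1+ and CTIP2+. The CA1 and subiculum nuclei of 1 h mouse 2 were sorted as PROX1− and CTIP2+. Where CA3 is compared with these nuclei, sort gate, mouse and cell type cannot be told apart. Mouse 4 gave 8 FOS+ and 5 FOS− nuclei and mouse 10 gave 5 and 5. Those 2 mice are the replicates. Each carries its own date-like label prefix, taken here as a batch, so that animal and batch cannot be told apart. HC mouse 8 gave 3 nuclei and an HC mouse also numbered 4 gave 1. Nuclei are numbered within their group in the order of their records. Nuclei of 1 mouse are not independent, so no p-value was computed over nuclei, and an exact permutation of 2 mice against 2 could not give a two-sided p under 0.333.

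The authors assigned the CA3 label from the RNA of these same nuclei, so marker genes are no independent check of it. The paper gave CA3 the lowest cluster precision of the cell types it lists. CA3 marker genes were read beside the label as a description. Their mean log2(TPM+1) per nucleus was 3.38 to 6.90 (median 5.42) in CA3 nuclei, against medians of 2.20 in 100 CA1 nuclei, 2.15 in 38 subiculum nuclei and 1.17 in 79 DG nuclei, HC nuclei included. Grik4, a kainate receptor subunit of CA3, was above 1 in 27 of 27 nuclei, and so was the vesicular glutamate transporter Slc17a7. Prox1, the transcription factor used for the gate, was at 0 in every CA3 nucleus. FOS− nucleus 1 of mouse 4 went against its label: its CA1 markers averaged 4.55 and its CA3 markers 3.91, the only such case of 27. The number of called genes and the median over immediate early transcription factors are given with and without it. The other results include it. Of the GABA synthesis genes, Gad1 reached at most 0.72 and Gad2 at most 1.06, and the mean of 11 interneuron markers was 0.16 to 1.51 in FOS+ and 0.00 to 1.05 in FOS− nuclei. The neuropeptide gene Sst was above 1 in 19 of 27 nuclei, with animal means of 6.96 (FOS−) and 5.38 (FOS+) in mouse 4 against 0.00 and 2.32 in mouse 10. Its part in any result was not tested. Total counts ran from 981610 to 2380877 in FOS+ nuclei, from 719862 to 2423886 in FOS− nuclei and from 950108 to 1686349 in HC nuclei.

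**Figure D1:**
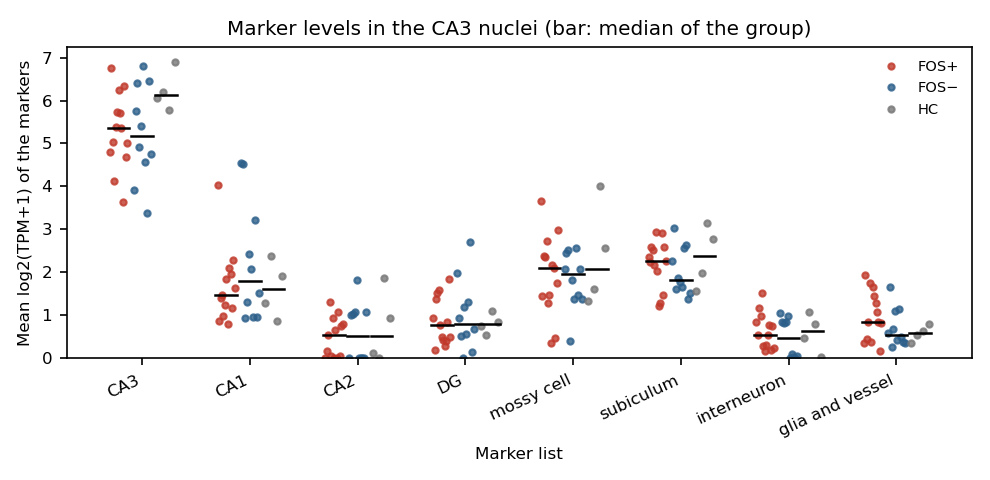
Mean log2(TPM+1) of 8 marker lists (horizontal axis) in each CA3 nucleus, coloured by group, with a bar at the median of the group. CA3 markers lie between 3.38 and 6.90, and the highest CA1 marker mean, 4.55, belongs to FOS− nucleus 1.

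Immediate early genes (IEGs) are transcribed within minutes of neuronal firing, without new protein synthesis. Many of their promoters bind CREB or serum response factor, and their products include transcription factors, such as FOS, the EGR and the NR4A family, and effectors that act at synapses or are secreted, such as ARC and BDNF. FOS protein in a nucleus therefore reports recent activity, while the RNA in the same nucleus reports transcripts present at sorting. The short motif TGACG, the core of the CREB site TGACGTCA, is marked here in the promoters of Fos, Nr4a1 and Nr4a2, printed because these genes were high together in 3 FOS+ nuclei. The sequences are RefSeq windows of 300 bases on GRCm38.p6, read along the gene's strand, for Fos at chr12:85473640-85473939 (plus strand), Nr4a1 at chr15:101266596-101266895 (plus strand) and Nr4a2 at chr2:57123954-57124253 (minus strand). Capitals mark TGACG or its reverse complement CGTCA.
Fos: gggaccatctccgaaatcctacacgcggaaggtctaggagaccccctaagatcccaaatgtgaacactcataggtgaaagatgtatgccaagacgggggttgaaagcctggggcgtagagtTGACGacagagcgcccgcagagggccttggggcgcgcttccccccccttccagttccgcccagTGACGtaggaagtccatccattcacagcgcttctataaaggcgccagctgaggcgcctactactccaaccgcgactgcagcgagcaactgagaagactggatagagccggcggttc
Nr4a1: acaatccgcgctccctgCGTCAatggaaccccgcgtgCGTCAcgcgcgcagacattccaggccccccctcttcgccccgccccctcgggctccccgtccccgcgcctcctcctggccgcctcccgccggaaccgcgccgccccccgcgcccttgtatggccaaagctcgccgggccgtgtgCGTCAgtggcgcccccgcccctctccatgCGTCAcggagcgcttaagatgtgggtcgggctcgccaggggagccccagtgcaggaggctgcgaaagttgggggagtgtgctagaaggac
Nr4a2: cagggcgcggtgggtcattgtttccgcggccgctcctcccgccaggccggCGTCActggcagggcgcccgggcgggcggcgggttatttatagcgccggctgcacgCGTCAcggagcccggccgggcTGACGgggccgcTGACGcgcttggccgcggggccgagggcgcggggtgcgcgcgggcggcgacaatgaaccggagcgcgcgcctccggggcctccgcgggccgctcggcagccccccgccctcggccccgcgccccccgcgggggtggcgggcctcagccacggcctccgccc

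The Fos window held 2 copies and the Nr4a1 and Nr4a2 windows 4 copies each, searched on both strands. TGACG was present in 20.8% of 32851 mouse promoter windows, in 22 of 32 windows of the IEG transcription factors (68.8%) and in 16 of 30 windows of the effectors (53.3%). The full palindrome TGACGTCA, which contains TGACG, was present in 1.79% of all windows, in 2 of 32 (6.25%) and in 3 of 30 (10%). Windows were found for 23 of 28 transcription factors and 20 of 26 effectors, some genes with more than 1 start. A match is a description of letters and does not mark a bound site.

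Fos transcript was seen in few of the nuclei sorted for its protein. It was above a log2(TPM+1) of 1 in 4 of 13 FOS+ nuclei (30.8%, exact 95% interval 9.09 to 61.4, counting error only) and in 1 of 10 FOS− nuclei (10%, 0.253 to 44.5). FOS+ nuclei 3, 4 and 10 stood at 9.19, 7.84 and 7.65, FOS+ nuclei 5 and 2 at 1.26 and 0.63, and the other 8 at 0. FOS− nucleus 4 reached 1.67, and the other 9 FOS− nuclei and the 4 HC nuclei were at 0. By animal, Fos averaged 2.37 (mouse 4) and 1.53 (mouse 10) in FOS+ nuclei against 0.33 and 0.00 in FOS− nuclei. The FOS+ level lay above the FOS− level in both mice, with a difference of 1.78 ± 1.08 (SE, limma, adjusted p = 1.00).

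The same 3 nuclei carried the broadest IEG program. Of 28 IEG transcription factors, FOS+ nuclei 3, 4 and 10 had 19, 19 and 13 above 1, while the other 10 FOS+ nuclei had 4 to 8, the 10 FOS− nuclei 1 to 10 and the 4 HC nuclei 3 to 5. Of 26 synaptic and secreted effectors they had 19, 22 and 21, against 7 to 17 in FOS− nuclei and 9 to 15 in HC nuclei. FOS− nucleus 1, whose CA1 markers exceeded its CA3 markers, held both FOS− maxima, 10 and 17. Nuclei 3 and 4 came from mouse 4 and nucleus 10 from mouse 10, so the pattern was present in both animals. Their total counts were 1527191, 2368387 and 996578, within a FOS+ range of 981610 to 2380877, and they had 6927, 7164 and 7180 genes above 1, where FOS+ nuclei ranged from 6777 to 8482. With every nucleus thinned to 700000 counts, the number of IEG transcription factors with at least 1 count was 19, 19 and 14 in these nuclei and 2 to 10 in FOS− nuclei. These nuclei are described one by one and were not grouped or tested, since the genes that single them out are the ones counted.

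**Figure D2:**
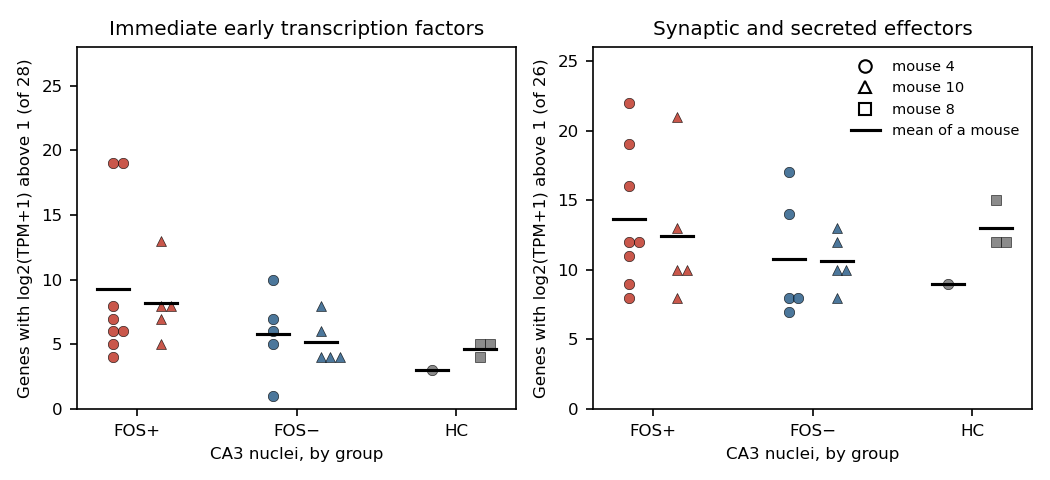
Number of genes with a log2(TPM+1) above 1, of 28 immediate early transcription factors (left) and 26 effectors (right), in each CA3 nucleus (symbol, shape by mouse number) with the mean of each mouse (bar). FOS+ nuclei with 19, 19 and 13 transcription factors lie above the highest FOS− nucleus, at 10, and the remaining FOS+ nuclei overlap the FOS− nuclei; the HC mouse numbered 4 is not the 1 h mouse 4.

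Averaged by mouse, the number of IEG transcription factors above 1 was 9.25 ± 6.14 (SD, 8 nuclei of mouse 4) and 8.2 ± 2.95 (5 nuclei of mouse 10) in FOS+ nuclei, and 5.8 ± 3.27 and 5.2 ± 1.79 (5 nuclei each) in FOS− nuclei. FOS+ was higher in both mice, by 3.45 and 3 genes, and in each mouse the nuclei of both gates overlapped. In the thinned counts, the means of factors with at least 1 count were 9.75 and 9.2 against 6.6 and 6.6. The thinned median over nuclei was 7 in FOS+ and 7 in FOS−. Before thinning, mean total counts in mouse 4 and mouse 10 were 1763330 and 1357980 (FOS+) against 1806080 and 885668 (FOS−). HC mouse 8 averaged 4.67 ± 0.577 (SD, 3 nuclei).

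Individual transcription factors followed the 3 nuclei to different degrees. Nr4a1, an orphan nuclear receptor, was at 6.28, 7.75 and 8.04 in FOS+ nuclei 3, 4 and 10 and at most 0.71 in the other 10. It was at 7.58 in FOS− nucleus 1, the nucleus whose CA1 markers exceeded its CA3 markers, and at most 0.84 in the other 9. Nr4a2 was above 5 in 5 FOS+ nuclei, up to 9.64, and in FOS− nucleus 1, at 9.01. Animal means of Nr4a2 were 4.53 and 1.74 in FOS+ against 1.99 and 0.32 in FOS−, so the FOS+ mean of mouse 10 lay below the FOS− mean of mouse 4. Its difference was 1.98 ± 1.08 (limma, adjusted p = 1.00).

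Crem, a CREB family gene with an inducible repressor product, was above 1 in 7 of 13 FOS+ nuclei, up to 7.81, and in 2 of 10 FOS− nuclei, up to 1.93. Its animal means were 2.24 and 3.62 against 0.00 and 0.70, without overlap. The difference of 2.58 ± 1.17 did not pass adjustment (limma, adjusted p = 0.940). Nfil3, a bZIP repressor, was listed at 0 in all 10 FOS− nuclei and all 4 HC nuclei and at 3.64, 7.75 and 7.08 in FOS+ nuclei 3, 4 and 13.

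Junb, an AP-1 subunit, did not follow the gate. Its animal means were 3.92 and 3.18 in FOS+ nuclei and 4.18 and 3.71 in FOS− nuclei, and it was above 1 in 6 of 13 and 7 of 10. In the 4 HC nuclei it reached at most 0.75. Its difference from HC was 3.55 ± 1.47 in FOS+ nuclei (limma, adjusted p = 0.379) and 3.94 ± 1.47 in FOS− nuclei (adjusted p = 0.271), neither past the threshold of 0.05.

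**Figure D3:**
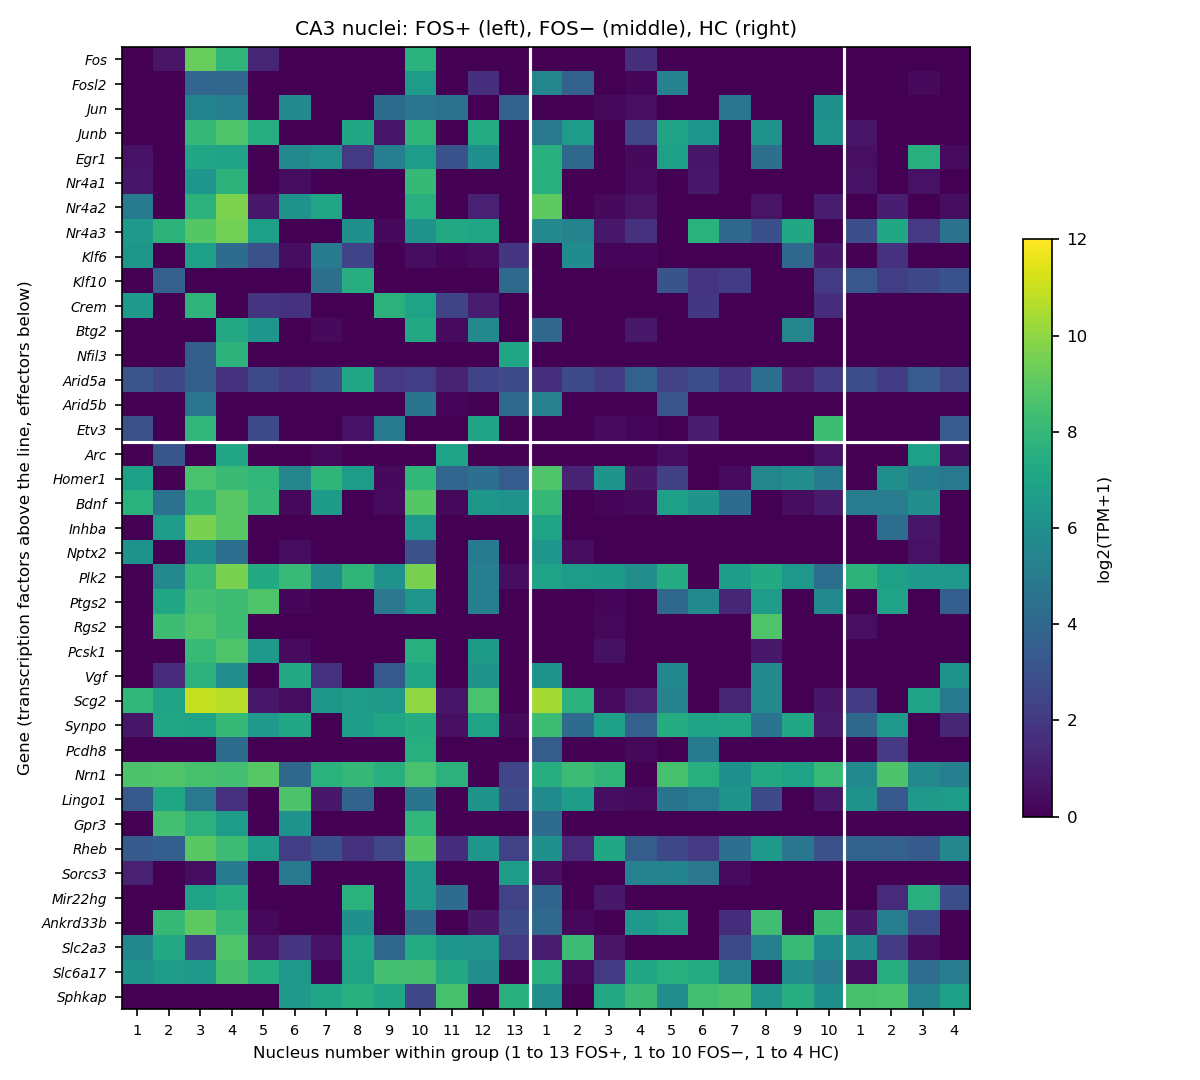
Log2(TPM+1) (colour, 0 to 12) of 16 immediate early transcription factors and 23 effectors (rows) in 27 CA3 nuclei (columns, by group). Columns FOS+ 3, 4 and 10 are bright over most rows, as is FOS− 1 over several, for example Nr4a1 at 7.58 and Scg2 at 10.40.

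Among effectors, Bdnf, a secreted neurotrophin, was above 1 in 9 of 13 FOS+ nuclei and 4 of 10 FOS− nuclei, with medians of 6.37 and 0.63. Its animal means were 5.46 and 4.40 in FOS+, 3.05 and 2.33 in FOS− and 3.65 in HC mouse 8. The groups did not overlap, and the difference of 2.24 ± 0.92 had a limma adjusted p of 0.854. When each mouse was represented by the median of its nuclei in place of the mean, Bdnf passed the threshold (difference 6.06, adjusted p = 0.00968).

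Pcsk1, a prohormone convertase, was above 5 in 5 FOS+ nuclei (3, 4, 5, 10 and 12), up to 8.68, and at most 0.79 in FOS− nuclei and 0 in HC nuclei. Its animal means were 2.94 and 2.82 against 0.11 and 0.16, a difference of 2.75 ± 1.36 (limma, adjusted p = 0.982). Scg2, a secretogranin of dense core vesicles, reached 10.95, 10.71 and 10.01 in FOS+ nuclei 3, 4 and 10 and 10.40 in FOS− nucleus 1, with a difference of 2.48 ± 1.63. Gpr3, a constitutively active receptor, was above 5 in 5 FOS+ nuclei and above 1 in FOS− nucleus 1 alone, at 4.19.

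Arc, which encodes a cytoskeletal regulator of AMPA receptor trafficking, was above 1 in 3 of 13 FOS+ nuclei (23.1%, exact 95% interval 5.04 to 53.8), namely nuclei 2, 4 and 11 at 3.23, 7.13 and 6.97. It was above 1 in 0 of 10 FOS− nuclei (exact upper limit 30.8%) and in 1 of 4 HC nuclei, at 6.82. FOS+ nuclei 3 and 10, with Fos at 9.19 and 7.65, had Arc at 0. The difference was 1.26 ± 1.49 (limma, adjusted p = 1.00). Some effectors went the other way without passing the test: Sphkap, a kinase A anchoring protein, had animal means of 2.65 and 5.15 in FOS+ and 5.45 and 7.37 in FOS−, a difference of -2.51 ± 1.45.

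**Figure D4:**
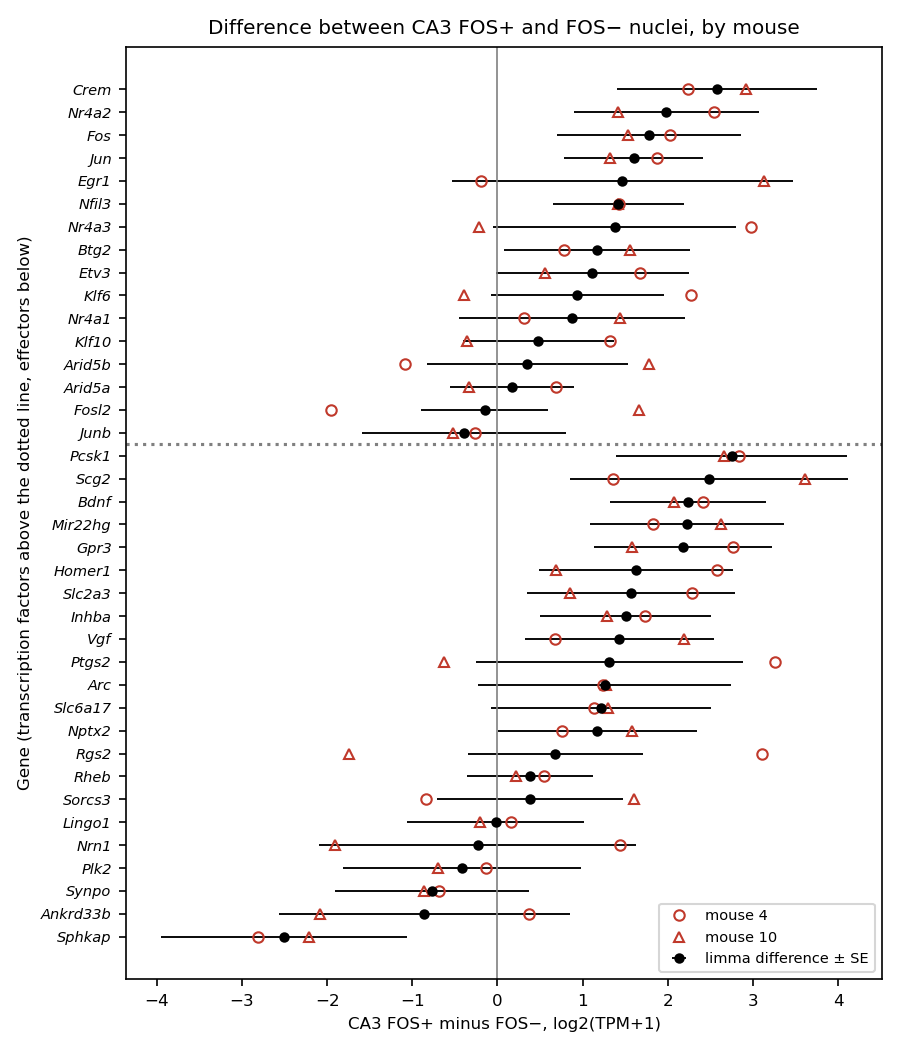
Difference between CA3 FOS+ and FOS− nuclei in log2(TPM+1) for the 38 named genes tested, as the limma estimate ± SE (black) and within mouse 4 (circle) and mouse 10 (triangle). None of these genes passed the adjusted threshold; Crem, at 2.58, and Pcsk1, at 2.75, have the highest estimates of their lists, and Sphkap, at -2.51, the lowest.

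The lists were read over every member with a value, with no filter on level, beside the 20841 genes with a value. In 3010 of these (14.4%), both FOS+ animal means lay above both FOS− means, and in 2681 (12.9%) both lay below, with a median difference of 0.016. Of 26 IEG transcription factors with a value, 24 were higher in FOS+ and 2 lower, 6 lay above in both mice without overlap (23.1%) and 0 below, and the median difference was 0.62. Of 24 effectors, 18 were higher and 6 lower, 11 lay above without overlap (45.8%) and 1 below, with a median of 1.19. Of 21 kinases, phosphatases and MAPK feedback genes, which include the phosphatase Dusp1 (2.07 ± 0.91) and the kinase Sgk1 (2.57 ± 1.16), 16 were higher and 4 lay above without overlap, with a median of 0.80. These are counts over genes that share 4 animal means, and no test of a list was made.

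Markers of other cells were read in the same way. Of 9 CA1 markers, 8 were lower in FOS+ and 4 lay below without overlap (44.4%), with a median of -0.40, and their mean per nucleus was 0.79 to 4.03 in FOS+ and 0.94 to 4.55 in FOS− nuclei. Of 6 subiculum markers with a value, 4 were higher and 3 lay above without overlap (50%), with a median of 0.37. Of 11 glial and vascular markers with a value, 8 were higher and 3 lay above without overlap (27.3%), with a median of 0.30 and means per nucleus of 0.17 to 1.93 in FOS+ and 0.26 to 1.66 in FOS− nuclei. The oligodendrocyte gene Mog and the endothelial gene Cldn5 were at 0 in all animal means. The part of these markers in the list counts was not tested.

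Chromatin and RNA-binding regulators gave 15 higher and 8 lower of 23, with a median of 0.40. Gadd45g, a growth arrest and DNA repair factor, had animal means of 3.02 and 4.86 in FOS+ against 0.67 and 0.27 in FOS− (difference 3.47 ± 0.97, limma adjusted p = 0.326), and the class IIa histone deacetylase Hdac5 had 4.47 and 4.64 against 0.89 and 1.16 (3.53 ± 1.34, adjusted p = 0.758). HC mouse 8 had no Gadd45g (0.00) but a Hdac5 mean of 4.70, on the level of the FOS+ nuclei. CREB family genes and their coactivators were evenly split, 12 higher and 12 lower, as were glutamate receptors, 10 and 12.

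Of 33 potassium channel genes, 13 were higher and 20 lower, 9 lay below in both mice without overlap (27.3%) and 1 above, with a median of -0.25. Kcnd2, the Kv4.2 channel of the A-type current, was the lowest of them, with FOS+ means of 0.76 and 1.85 and FOS− means of 4.54 and 2.21 (difference -2.07 ± 1.00, limma adjusted p = 0.982). Of 19 circadian clock genes, 6 lay below without overlap and 2 above. Of 20 heat shock and folding genes, 15 were higher, with Hsph1 at 2.31 ± 1.13, and the mitochondrial chaperonin Hspe1 was lower, at -2.80 ± 1.07.

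Lists that the study drew from other cells of this series were read in the same manner. They are not independent of these mice, since mouse 4 and mouse 10 also gave CA1 nuclei. The CA1 lists hold genes picked as higher or lower in FOS+ CA1 nuclei. Of 31 CA1-higher genes, 28 were higher in CA3 FOS+ nuclei, and 15 lay above without overlap (48.4%), with a median of 1.21. Of 8 CA1-lower genes, 6 were lower and 5 lay below without overlap (62.5%), with a median of -0.89. Of 248 early genes of DG, which rise at 1 h and return later, 163 were higher and 55 lay above without overlap (22.2%), with a median of 0.28. The median was 0.40 over 107 sustained genes and 0.12 over 127 late genes of DG, which rise hours afterwards.

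Across 12814 genes tested with limma, 13 passed an adjusted p of 0.05 between FOS+ and FOS− (0.101% of those tested), 4 higher and 9 lower in FOS+. At an unadjusted p under 0.05 there were 287 higher (2.24%) and 358 lower (2.79%). edgeR on counts summed by mouse called 0 of 17293 genes (lowest adjusted p 0.858, 674 at an unadjusted p under 0.05), whereas DESeq2 called 475. With the mouse as a paired replicate block, which the design justifies because both gates came from the same animals, limma called 1 gene. None of the 13 was an IEG or an effector on the lists above, and each was above 1 in 2 to 7 of the 23 nuclei.

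The 4 higher genes were Gm15334 (3.05 ± 0.48, adjusted p = 0.0238), Thrsp (3.03 ± 0.58, adjusted p = 0.0475), Tmem86b (2.96 ± 0.53, adjusted p = 0.0330) and Gm15029 (1.39 ± 0.24, adjusted p = 0.0310). Thrsp, a lipogenic regulator, was above 1 in 7 of 13 FOS+ nuclei and listed at 0 in 10 of 10 FOS− nuclei, but also stood at 6.05 in 1 of 4 HC nuclei. Tmem86b, a lysoplasmalogenase, was above 1 in 6 FOS+ nuclei and 1 FOS− nucleus. Gm15334, an antisense gene, was between 7.15 and 9.03 in FOS+ nuclei 1, 3, 4, 10 and 12 and at 0 in every FOS− and HC nucleus. Gm15029 is a processed pseudogene, whose reads can be shared with its parent gene. Ola1, an ATPase, had the next smallest p among higher genes, with 11 of 13 FOS+ nuclei above 5 and 3 of 10 FOS− nuclei above 1, a difference of 4.78 ± 0.98 and an adjusted p of 0.0775, just outside the threshold. It passed without the filter on low values (adjusted p = 0.0430) and with the median over nuclei (difference 6.25, adjusted p = 0.00629).

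Of the 9 lower genes, Pcsk2os2 alone stayed called under the replicate block. It was listed at 0 in 13 of 13 FOS+ nuclei and above 1 in 6 of 10 FOS− nuclei, up to 7.62, and at 7.82 in 1 of 4 HC nuclei, with FOS− animal means of 3.41 and 3.55 (difference -3.48 ± 0.59, adjusted p = 0.0280). Its call was lost when any 1 of the 4 CA3 mouse means was left out (adjusted p = 0.0574 to 0.193), with the CA3 groups alone (0.925) and on counts thinned to 100000 per nucleus (difference -2.07, adjusted p = 0.407). Pcsk2os2 lies on the minus strand of chromosome 2 from 143747583 to 143795965 (GRCm38), inside Pcsk2, a prohormone convertase gene on the plus strand. The library kit does not mark strand, so reads of these genes cannot be told apart where they overlap. Pcsk2 itself was at 6.82 and 6.80 in FOS+ and 6.37 and 6.18 in FOS− (difference 0.54 ± 0.72, adjusted p = 1.00).

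Gm12216 (-3.26 ± 0.48), Speer4a (-2.77 ± 0.53), Gm13787 (-2.30 ± 0.37), Nkiras2 (-1.62 ± 0.30) and Col15a1 (-1.58 ± 0.29) were above 1 in 3 to 6 FOS− nuclei and in 0 to 2 FOS+ nuclei. Nkiras2 encodes an inhibitor of NF-kB signalling and Col15a1 a basement membrane collagen. The microRNA gene Mir7067, the small nuclear RNA Gm22576 and the tektin gene Tekt2 rested on 2 FOS− nuclei each. Leaving out any 1 of the 23 nuclei moved the number called to between 6 and 18, and without FOS− nucleus 1 it was 16, with the median over the IEG transcription factors tested at 1.48 in place of 1.11. Speer4a belongs to a family of near-identical genes, so its reads are uncertain.

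The FOS difference in CA3 was set beside that of other glutamatergic cells at 1 h: 65 CA1, 24 subiculum and 53 DG nuclei. The paper left FOS− nuclei with Arc above 2.5 out of its comparisons, and they were kept here. Arc was above 5 in 8 of 32 CA1 FOS− nuclei and reached at most 0.59 in CA3 FOS− nuclei. Median differences over the IEG transcription factors tested were 1.11 in CA3, 2.15 in CA1, 0.88 in subiculum and 3.50 in DG, and over the effectors 1.24, 2.48, 1.42 and 5.02. These medians cover 17 and 22 members that passed a filter on level in CA3 and are given as descriptions. Within mouse 4 and mouse 10, which each gave CA3, CA1 and subiculum nuclei, the IEG medians were 1.11, 2.18 and 1.11. Tests of the difference between cell types called 0 of 12814 genes against CA1 (532 at an unadjusted p under 0.05) and 0 against subiculum (770), by limma, and 0 in both by edgeR (875 and 1263). Without FOS− and HC nuclei with Arc above 2.5, limma also called 0 in both. Against DG, where both gates come from 1 mouse and the spread is taken from the other groups, limma called 2 genes (0.0156%), Cenpa and Snhg11, and edgeR 1.

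Single genes showed the spread between cell types. Nr4a1 differed between FOS+ and FOS− by 0.87 ± 1.32 in CA3, 3.47 ± 1.08 in CA1, 3.21 ± 1.08 in subiculum and 4.98 ± 1.87 in DG, and it was above 1 in 3 of 13, 28 of 33, 8 of 11 and 19 of 26 FOS+ nuclei. The CA3 difference minus that of CA1 was -2.60 ± 1.71 (limma, adjusted p = 1.00). Arc was above 1 in 3 of 13 CA3, 20 of 33 CA1, 4 of 11 subiculum and 26 of 26 DG FOS+ nuclei. Among FOS− nuclei it was above 1 in 0 of 10, 12 of 32, 2 of 13 and 12 of 27. Mouse 2, which gave no CA3 nuclei, held 17 of the 20 CA1 nuclei. In mouse 4 and mouse 10, Arc was above 1 in 2 of 4 and 1 of 5 CA1 FOS+ nuclei, against 2 of 8 and 1 of 5 in CA3. The CA1 FOS− values of these mice were 0 of 5 and 3 of 6. Bdnf differed by 2.24 ± 0.92 in CA3 and by 4.47 ± 0.75 in CA1 (adjusted p = 0.0346 in CA1), and the test between the differences gave -2.22 ± 1.18 (adjusted p = 1.00).

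The breadth of the IEG program was read in the same way across cell types. FOS+ nuclei had a median of 7 in CA3 (4 to 19), 12 in CA1 (5 to 16), 10 in subiculum (6 to 14) and 13.5 in DG (8 to 20), while FOS− medians were 5.5, 5, 5 and 4. These counts were not thinned, and with thinned counts the CA3 medians were 7 and 7. More than 10 were found in 3 of 13 CA3 FOS+ nuclei, 24 of 33 CA1, 4 of 11 subiculum and 24 of 26 DG. Over mouse 4 and mouse 10 alone, the counts were 3 of 13 in CA3, 7 of 9 in CA1 and 2 of 6 in subiculum. By mouse, FOS+ exceeded FOS− in CA3 by 3.45 (mouse 4) and 3 (mouse 10), in CA1 by 7.7 and 6.17, and in subiculum by 4.25 and 3.75. The CA1 value was the largest of the 3 in both mice, with 2 to 8 nuclei behind each mean, and no test was made of this count over listed genes.

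**Figure D5:**
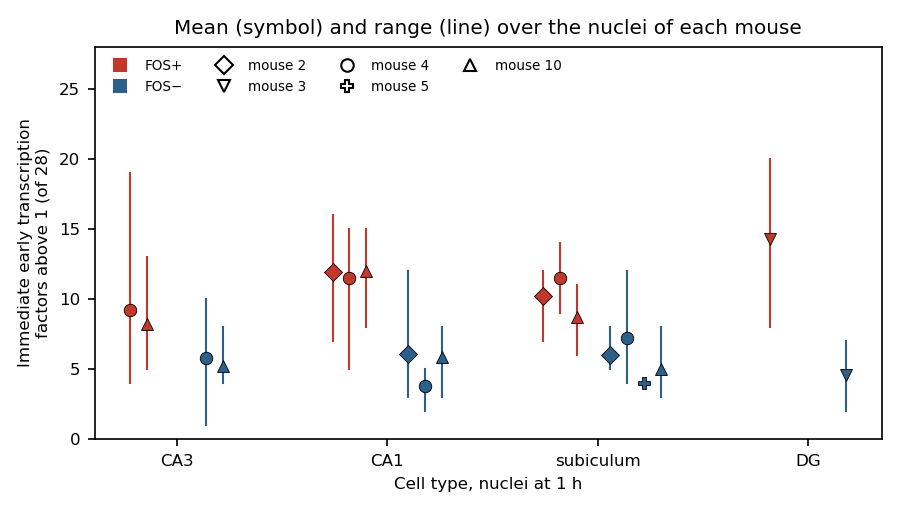
Number of immediate early transcription factors (of 28) with a log2(TPM+1) above 1 at 1 h, by cell type, as the mean (symbol) and range (line) over the nuclei of each mouse. FOS+ means of CA3 are 9.25 and 8.2, below the CA1 means of 11.5 to 12 and the DG mean of 14.3, and the subiculum means are 8.75, 10.2 and 11.5.

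Against HC, the CA3 comparison rests on the 3 nuclei of mouse 8, since the other HC mouse gave 1 nucleus and a mean needed 2. With 1 HC mouse there is no spread within HC, and the SEs and adjusted p-values rest on the assumption that it varies like the other groups. Those 3 nuclei had 8624 to 9583 genes above 1, more than any 1 h nucleus (6376 to 8586), and the median difference of all genes was -0.39 in FOS+ and -0.39 in FOS− nuclei. limma called 103 genes in FOS+ nuclei (0.804%), 4 higher and 99 lower, and 122 in FOS− nuclei (0.952%), 13 higher and 109 lower, while edgeR called 0 in both (488 and 537 at an unadjusted p under 0.05). The balance of directions turned with the tool: DESeq2 on summed counts called 745 higher and 93 lower in FOS+ nuclei and 749 higher and 150 lower in FOS− nuclei, and the median difference of all genes by edgeR was 0.35 and 0.25. When the single nucleus of the other HC mouse was counted as a second mouse, limma called 45 and 67 genes, of which 13 and 24 were among the 103 and 122. No IEG or effector was among the limma calls. Both comparisons share the HC mouse. Over the 17 CA3 markers tested, the median difference from HC was -0.97 in FOS+ and -1.02 in FOS− nuclei, below that of all genes. The part of these markers in the HC comparison was not tested.

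Genes called lower than in HC mouse 8 in both gates included Iyd, a deiodinase that marks CA3, at 5.94 in HC against 0.57 and 1.47 in FOS+ and 2.91 and 1.55 in FOS−, and Gprin3, a gene linked to neurite growth, at 7.00 in HC against 1.60 and 2.47 and 1.45 and 0.28. With both HC mice, Iyd kept both calls and Gprin3 lost that of FOS+ nuclei (limma, adjusted p = 0.0609). Nfatc2, a calcium-dependent transcription factor, was at 4.76 in HC, 1.53 and 2.79 in FOS+ and 0.00 and 0.07 in FOS−, and its difference from HC was -4.73 ± 0.68 in FOS− nuclei (limma, adjusted p = 0.00217) and -2.60 ± 0.68 in FOS+ nuclei (adjusted p = 0.0816), with 2.13 ± 0.56 between the gates (adjusted p = 0.263). With both HC mice, Nfatc2 was called in both gates (adjusted p = 4.11e-05 in FOS− and 0.00617 in FOS+). The endoplasmic reticulum chaperone Hsp90b1 stood at 8.20 and 7.79 in FOS− nuclei against 2.80 in HC mouse 8 (5.19 ± 1.07, limma adjusted p = 0.0222) and at 7.87 and 6.58 in FOS+ nuclei (4.42 ± 1.07, adjusted p = 0.0538), and its FOS− call was lost with both HC mice (3.84, adjusted p = 0.423). Cldn22, a claudin, had the smallest p among genes higher in FOS+ nuclei, at 2.88 and 2.51 against 0.00 in mouse 8 (2.69 ± 0.37). The nucleus of the other HC mouse had Cldn22 at 4.73, and with both HC mice the difference was 0.33 (limma, adjusted p = 0.964). Cldn22 lies within Wwc2 on the opposite strand, so their overlapping reads cannot be told apart.

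Genes whose level followed Arc most closely over the 23 nuclei were Tvp23a (Pearson r 0.88), Gm17171 (0.83), Zfand4 (0.82), Arvcf (0.81) and Gm7634 (0.80), of 14343 genes compared. Each was above 1 in 3 or 4 nuclei, and the nuclei share libraries and mice, so these values are descriptions.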

How the data were processed

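Reads of each nucleus were trimmed with Solexa-QA++ and aligned to mm10 by the authors with RSEM and Bowtie (Ensembl annotation, release not given in the sources used here). The deposited expected counts of RSEM are whole numbers. The deposited log2(TPM+1) values were computed by the authors from RSEM TPM. Of 42802 and 40221 genes, 30 and 23 without a value were left out. Cell types are the authors' predicted labels. A second pair of deposited tables, with DG nuclei of later times, was not used.

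A mouse was defined by label prefix, exposure and mouse number. Log2(TPM+1) values were averaged over at least 2 nuclei per mouse, cell type and FOS gate, and 26 such means of 239 nuclei from CA3, CA1, subiculum and DG (HC and 1 h) entered a single limma 3.58.1 fit (R 4.3.3, eBayes with trend, 14 residual degrees of freedom). Genes needed a mean of at least 1 in 2 of the 5 CA3 means. Differences are on the log2(TPM+1) scale, which understates changes of low genes. The fit assumes that CA3 mice vary like those of the other cell types. Counts summed in the same way, rounded, were tested with edgeR 4.0.16 (TMM, quasi-likelihood) and, as an alternative, DESeq2 1.42.0. p-values were adjusted by Benjamini-Hochberg over all genes tested, with a threshold of 0.05. The scripts were tested on simulated data.

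Same-numbered CA3 FOS+ and FOS− means come from the same mouse, and their deviations correlated at r = 0.08 across genes. Correlation between the cell types of a mouse was not tested. The 27 nuclei correlated at r = 0.50 to 0.63, so none was a duplicate. Counts include PCR copies, and intervals over nuclei cover counting error only.

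Named genes were the members of the first 2 lists with a mean of at least 1 in a 1 h group (16 transcription factors and 23 effectors), the called genes whose mice did not overlap (10 at most in each direction, or the 5 smallest p where fewer than 5 passed), and 5 in each direction for HC. Members and lists were chosen with earlier results of these data known. Gene positions came from GENCODE vM21 (GRCm38) by symbol, and promoters from RefSeq. Alternatives were another filter, pseudocount, nucleus summary, weight, gene or nucleus minimum, thinning, block and leaving out mice or nuclei.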

Additional observations from a re-analysis of the deposited data

Results flagged for a closer look

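Cenpa, a centromeric histone H3 variant, and Snhg11, a long noncoding RNA, passed the limma test of the FOS+ minus FOS− difference between CA3 and DG (adjusted over all genes tested). For Cenpa the difference of differences was -5.67, from 0.72 ± 0.41 in CA3 and 6.40 ± 0.58 in DG. For Snhg11 it was 4.11, from -0.07 ± 0.33 in CA3 and -4.18 ± 0.46 in DG. Both DG gates come from 1 mouse, so the DG SEs are taken from the spread of the other groups, and mouse and cell type cannot be told apart. With the paired replicate block Cenpa lost its call (limma, adjusted p = 0.145), and at 1 nucleus or more per mouse Snhg11 lost its call (adjusted p = 1.00). These alternatives for single genes were chosen after seeing the data.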

How the results depend on the processing

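The limma count of 13 genes between FOS+ and FOS− was 56 without the filter on low values, 4 with log2(TPM + 0.1), 38 with the median over nuclei, 8 with weights by number of nuclei, 0 with the CA3 groups alone, 8 at 5000 genes or more per nucleus, 7 with the FOS− and HC nuclei with Arc above 2.5 left out, which in CA3 removed 1 of 3 nuclei of HC mouse 8, 4 at 4 nuclei or more per mouse, 1 with the paired replicate block and 0 on thinned counts. Only 1 of the 38 genes called with the median over nuclei was among the 13, while the 56 held all 13. Against HC, the counts of 103 (FOS+) and 122 (FOS−) became 745 and 751 without the filter, 51 and 58 with log2(TPM + 0.1), 15 and 1 with weights, 0 and 0 with CA3 alone, 259 and 263 without high-Arc nuclei (71 and 81 of them shared) and 45 and 67 at 1 nucleus or more per mouse, and the median over nuclei gave 185 in FOS+ (12 of them shared). Between cell types, no filter gave 21 (CA1), 24 (subiculum) and 19 (DG) genes and the median over nuclei 14, 24 and 4, and for DG the weights gave 11, 1 nucleus or more 1 and the block 1. edgeR's counts of 0 became 475, 838 and 899 with DESeq2, mostly higher than HC in the last pair where limma's were mostly lower, and 1 and 1 against HC without high-Arc nuclei. The median over the IEG transcription factors, 1.11, was 0.62 without the filter, 1.61 with log2(TPM + 0.1), 0.26 with the median over nuclei and 1.48 without FOS− nucleus 1. The median over the sustained genes of DG, 0.47, was 0.12 with the median over nuclei, and that over the early genes was 0.32. The causes were not tested.

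Leaving out 1 mouse or nucleus gave 0 to 18 genes between FOS+ and FOS−, 28 to 115 (FOS+) and 41 to 116 (FOS−) against HC, 0 to 6 for the difference from CA1, 0 to 10 from subiculum and 2 to 2 from DG, and 0 to 0 by edgeR in the CA3 comparisons. The medians ranged from 0.68 to 1.48 (IEG transcription factors), 0.074 to 0.72 (early) and 0.17 to 0.75 (sustained). The FOS+ versus FOS− count was 4 without FOS+ mouse 4, 0 without FOS+ mouse 10 and 0 without FOS− mouse 10, against HC in FOS+ it was 28 and 35 without FOS+ mouse 4 and 10, and against HC in FOS− it was 44 and 41 without FOS− mouse 4 and 10 and 68 without FOS+ mouse 10, and a lone mouse was then assumed to vary like the others. Without FOS+ nucleus 6 or FOS− nucleus 5 it was 6 and 7. Most genes called without FOS+ mouse 4, or without FOS− mouse 4, were not among the 13 of the full fit. The early gene median was 0.58 without FOS− nucleus 10. The paired replicate block changed no other call than those given. Leaving out nuclei singly, leaving out FOS− nucleus 1 and the alternatives for single genes against HC were chosen after seeing the data. Of 813 values of named genes under the alternatives, 682 kept direction and side of the threshold, 104 lost the call and 3 gained it. A further 24 no longer had the same sign, with no call in either fit, and 0 did so with a call. The compared groups held 1 to 3 mice, and many transcripts were seen in few nuclei.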
